A study of Caenorhabditis elegans with 2 samples.

Results

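DSC-1 is a paired-like homeodomain transcription factor of Caenorhabditis elegans, and this account concerns the places where its chromatin immunoprecipitation (ChIP-seq) peaks lay at transfer RNA (tRNA) genes. A peak belonged here when its summit, the position of highest signal, lay within 500 bp of the start of any nuclear gene annotated as tRNA. Of 6283 peaks in the authors' list, 218 did so (3.47%, exact 95% interval 3.03 to 3.95), and that distance from a tRNA gene start covers 0.533% of the genome. The list holds the peaks that passed an irreproducible discovery rate (IDR) threshold, a measure of how well the order of peaks repeats between replicates. Both libraries were immunoprecipitated with an anti-GFP antibody from whole hermaphrodites of strain OP522 (unc-119(tm4063) III; wgIs522), whose transgene fuses DSC-1 to a GFP-FLAG tag at its carboxy terminus. The animals were L1 larvae, starved as L1 after bleaching and taken 6 hours after that synchronization. There were 2 biological replicates in 1 group, so nothing here compares conditions. The labels name a control experiment that was not analysed here, the number of reads per library is unknown, and whether a peak reflects DSC-1 itself was not tested.

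tRNA genes are short genes read by RNA polymerase III. Their promoter lies largely inside the transcribed gene, as a pair of short elements named the A box and the B box. The factor TFIIIC binds these boxes and places a second factor, TFIIIB, on the DNA just before the gene, where TFIIIB recruits the polymerase. A run of T bases just past the gene ends transcription. C. elegans carries many tRNA genes of identical sequence, scattered singly, in pairs and in small groups, and a large share of them lies on the X chromosome. DSC-1 is best known from enteric muscle, where it is needed for the expulsion step of defecation.

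The sequences below show what the peaks sit on, each read 5′ to 3′ on the strand of its tRNA gene, with 60 bases before the gene and 15 after it, from the WBcel235 assembly, which ce11 also names. Capitals mark first the bases from -33 to -27, counted back from the gene start, and then the B box word GTTCNANNC. Both were marked after the sequences had been seen. The capitals do not show where the summits lay, which was -56 for M02F4.t2, -57 for C53C7.t1, -33 for W03G11.t1 and -56 for K11H12.t1. The first pair are the 2 strongest peaks that lie between tRNA genes, W03G11.t1 is the strongest peak at a tRNA gene with no other tRNA gene start within 1000 bp and a summit from -50 to -1, and K11H12.t1 is the gene for the selenocysteine tRNA.
M02F4.t2: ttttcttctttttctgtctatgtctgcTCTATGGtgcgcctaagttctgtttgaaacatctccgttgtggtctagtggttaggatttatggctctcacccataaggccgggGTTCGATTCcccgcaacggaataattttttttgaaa
C53C7.t1: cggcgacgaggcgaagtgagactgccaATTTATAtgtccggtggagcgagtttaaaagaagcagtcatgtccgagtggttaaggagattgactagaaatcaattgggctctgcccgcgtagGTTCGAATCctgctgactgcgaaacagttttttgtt
W03G11.t1: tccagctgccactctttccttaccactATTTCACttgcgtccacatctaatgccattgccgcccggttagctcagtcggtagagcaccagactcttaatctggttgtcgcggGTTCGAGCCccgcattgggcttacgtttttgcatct
K11H12.t1: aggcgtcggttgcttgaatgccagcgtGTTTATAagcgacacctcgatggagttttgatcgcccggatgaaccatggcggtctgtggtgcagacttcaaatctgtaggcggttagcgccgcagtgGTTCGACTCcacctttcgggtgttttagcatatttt

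The next 3 genes are tRNA-Pro genes whose annotated gene sequence is identical, so they differ only in the DNA around it. F46G11.t2 had a summit at -58 and W09D6.t2 at -44, while ZK970.t2 had none in the IDR list, the pooled list or either replicate's list.
F46G11.t2: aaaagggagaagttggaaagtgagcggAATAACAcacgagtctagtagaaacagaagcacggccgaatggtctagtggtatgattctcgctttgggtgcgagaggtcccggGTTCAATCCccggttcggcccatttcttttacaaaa
W09D6.t2: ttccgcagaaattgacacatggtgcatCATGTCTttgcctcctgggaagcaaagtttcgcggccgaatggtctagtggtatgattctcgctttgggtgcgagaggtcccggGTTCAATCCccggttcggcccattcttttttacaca
ZK970.t2: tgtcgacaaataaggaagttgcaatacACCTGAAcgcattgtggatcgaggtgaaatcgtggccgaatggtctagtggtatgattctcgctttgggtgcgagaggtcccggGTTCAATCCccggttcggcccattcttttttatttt

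The annotation placed most of the 218 peaks at the tRNA gene itself rather than at a neighbour. For 195 of them (89.4%, 84.6 to 93.2) the nearest gene start of any kind was that of a tRNA gene, for 17 it was that of a gene annotated as ncRNA and for 6 that of a protein-coding gene. The peak interval overlapped a tRNA gene in 202 cases (92.7%, 88.4 to 95.7). The summit was near 1 tRNA gene start for 190 peaks, near 2 for 25 and near 3 for 3. For 48 peaks (22%, 16.7 to 28.1) the summit was also inside a protein-coding promoter window, which reached 1000 bp before and 200 bp past the gene's start, against 39.3% (38 to 40.5) of the other 6065 IDR peaks. The summits farthest inside the limit were at R02E12.t1 (459 bp, rank 2869), B0285.t1 (449 bp, rank 874) and H35N09.t1 (442 bp, rank 767). Those just outside it were near M03A1.t2 (514 bp, rank 5947), F23A7.t1 (522 bp, rank 1901) and C16D9.t4 (523 bp, rank 2086).

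Counted over genes, 234 of the 612 nuclear tRNA genes had a summit within 500 bp of their start, a share of 38.2% (34.4 to 42.2). The same share was 12.2% of 19973 protein-coding genes and 9.59% of 46890 genes of all kinds. Among other short noncoding RNA genes it was 32.9% of 346 snoRNA genes (28 to 38.2), 17.8% of 129 snRNA genes (11.7 to 25.5) and 13% of 261 miRNA genes (9.19 to 17.7). None of the 20 genes annotated as rRNA had one, which allows a share of up to 16.8%. With only the 6283 strongest peaks of one replicate, 242 tRNA genes (39.5%) had a summit in replicate 1 and 222 (36.3%) in replicate 2, where protein-coding genes stood at 12.3% and 11.8%. These intervals cover counting error only, and genes are not replicates of a condition.

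Beyond the IDR list, more tRNA genes had a weaker peak. In the full pooled list of 30000 peaks 365 tRNA genes (59.6%, 55.6 to 63.6) had a summit, as did 30% of protein-coding genes. That included 131 of the 378 tRNA genes that had none in the IDR list. The 26482 peaks of replicate 1 reached 384 tRNA genes and the 30000 of replicate 2 reached 362. No list held a summit for 188 tRNA genes. The weaker pooled peaks lay differently around their genes: of 186 such peaks only 33 (17.7%, 12.5 to 24) had the summit from -50 to -1, and their median position was 78.5 bp past the start.

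The summits of the IDR peaks gathered in a narrow zone just before the tRNA gene. Positions were counted along the gene's own strand, with negative values upstream of the start. The median was -24 (quartiles -34 and -10.2), with 182 summits upstream of the gene, 17 inside it and 19 past its end. The 50 bases from -50 to -1 held 159 of the 218 summits (72.9%, 66.5 to 78.7), and the 30 bases from -40 to -11 held 121. The fullest 10 bp, from -30 to -21, held 51. The bases from -50 to -1 include the first run of capitals in the sequences above. In yeast, TFIIIB is known to sit on the DNA just before the gene. Positions here count from annotated gene starts, so no match of exact bases is read from this. Whether TFIIIB has a part in the place of these summits was not tested.

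**Figure D1:**
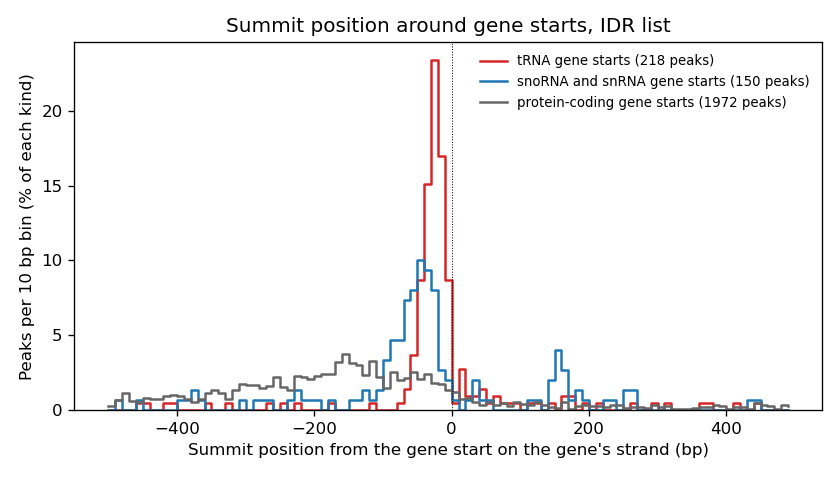
Position of the summit (horizontal, bp from the gene start on the gene's strand) against the share of peaks per 10 bp bin (vertical, percent of each kind) for peaks at tRNA genes, at snoRNA and snRNA genes and at protein-coding genes. The tRNA peaks stand in a tall, narrow column just left of 0, with 51 of 218 from -30 to -21, while those at protein-coding genes spread over a far wider stretch.

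Other gene starts did not have their summits in so tight a zone. All starts are those of the gene models, and how near they lie to where transcription begins was not examined. The 150 peaks within 500 bp of a snoRNA or snRNA gene start had a median position of -44, and 32% of them lay from -50 to -1. The 1972 at protein-coding starts had a median of -151, and 9.38% lay there. The zone before tRNA genes was present in each replicate: matched replicate peaks had median positions of -25 in replicate 1 and -23 in replicate 2, and 68.7% (62 to 74.8) and 64.7% (57.9 to 71) of them lay from -50 to -1. It was similar for genes on either strand, with medians of -24 for 116 peaks on the plus strand and -26.5 for 102 on the minus strand. At the 165 peaks whose tRNA gene had no other tRNA start within 1000 bp, the median was -25 and 127 summits (77%) lay from -50 to -1.

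The tRNA peaks lay somewhat more in the stronger part of the list, though few were at its top. Strength is given as rank by the authors' signal within a list, where 1 is the strongest, because the scale of that signal is not stated. Their median rank was 2742.5 (quartiles 1491.2 and 4131.5), against 3142 for all IDR peaks. With the list cut into 4 equal steps, from the strongest to the weakest, they numbered 62 (28.4%), 69 (31.7%), 49 (22.5%) and 38 (17.4%). A single tRNA peak was among the 100 strongest, and 12 (5.5%) were among the 500 strongest, which hold 7.96% of all IDR peaks. With 10 equal steps, the strongest step held 14 of them, the next 25 and the one after that 38, and the last 2 steps held 15 each.

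**Figure D2:**
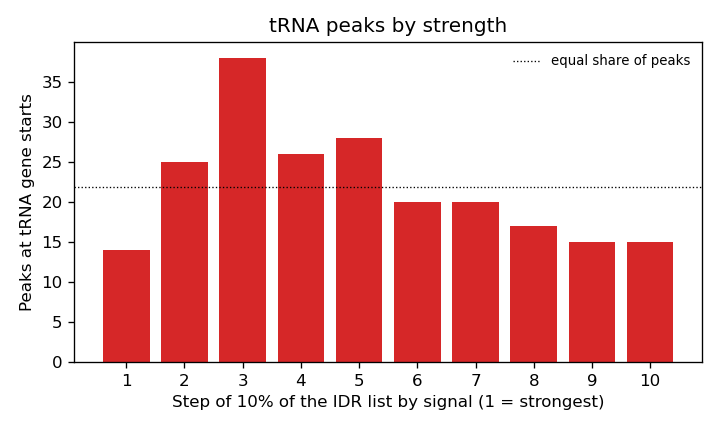
Number of peaks at tRNA gene starts (bars) in 10 equal steps of the IDR list by signal (horizontal, 1 = strongest), with a dotted line where an equal share would lie. The bar of the strongest step, 14 peaks, lies below the line, and that of step 3, 38 peaks, is the tallest.

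The replicates placed these peaks in nearly the same order. All 218 overlapped a peak of replicate 2 and 217 a peak of replicate 1. Among each replicate's 6283 strongest peaks, 95.4% of tRNA peaks were found in replicate 1 (all IDR peaks 90.4%) and 93.6% in replicate 2 (all IDR peaks 92.2%). Spearman's rank correlation between replicates was 0.899 over the 217 tRNA peaks found in both and 0.852 over 6232 IDR peaks, as a description across peaks that were selected on these same libraries. Summits of the matched peaks lay a median of 12 bp apart, and 190 of 217 were within 50 bp. The tRNA peaks ranked somewhat higher in replicate 1, with a median rank of 2382 there and 2627 in replicate 2. Of 217, 160 (73.7%, 67.3 to 79.5) had the better rank in replicate 1, compared with 48.2% of all IDR peaks.

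**Figure D3:**
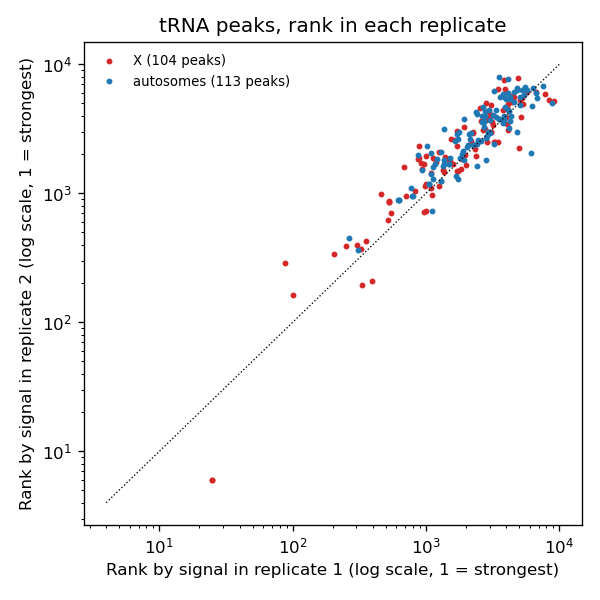
Rank of each of 217 tRNA peaks by signal in replicate 1 (horizontal) and replicate 2 (vertical), both on log scales with 1 as the strongest, coloured by X or autosomal location, with a dotted line at equal rank. The points follow the line over the whole range, and 160 of them lie above it, which is a better rank in replicate 1.

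The single strongest tRNA peak had its summit past the gene, as did 18 weaker ones. It spanned X, 8036043 to 8036943, and ranked 11 in the IDR list, 25 in replicate 1 and 6 in replicate 2. Its summit lay 316 bp past the start of the tRNA-Arg gene C18A11.t2, outside any protein-coding gene, and the nearest gene start was that of an ncRNA gene 233 bp away. The same interval is listed again with another summit, nearer to the gene, which ranked 3230. It was the only interval listed more than 1 time among the tRNA peaks.

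The next 2 peaks in strength, and those of ranks 283 and 326, lay between tRNA genes that point away from each other. The peak at X, 3035937 to 3036274, had its summit 56 bp before the tRNA-Glu gene M02F4.t2 and 61 bp before the tRNA-Gly gene M02F4.t1, and ranked 133 in the IDR list, 163 in replicate 2 and higher still in replicate 1. The peak at X, 13046370 to 13046640, lay between the tRNA-Ser genes C53C7.t1 and C53C7.t2, 57 and 74 bp from their starts, with rank 163 in the IDR list, 88 in replicate 1 and 289 in replicate 2. The tRNA-Pro genes F46G11.t2 and F46G11.t1 shared a summit of rank 283 (replicates 205 and 338). The tRNA-Pro genes W09D6.t2 and W09D6.t1, in an intron of rsa-2 on chromosome III, shared one of rank 326 (replicates 308 and 363). In both replicates each of these summits was among the 500 strongest.

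Over the whole genome, 42 pairs of neighbouring tRNA genes had starts at most 500 bp apart and pointed away from each other, and 8 of them had a summit between the starts. Of those 8 summits, 4 were among the 500 strongest peaks, and their ranks ran from 133 to 6281. Among 28 pairs pointing the same way 7 had a summit between the starts, the strongest of rank 702. Among 18 pairs pointing towards each other 1 did, at rank 2619. The DNA just before both genes lies between the starts only when they point away, so these counts depend in part on orientation. A summit within 500 bp of either start was found for 11 of the 42 pairs pointing away from each other. The same held for 13 of the 28 pointing the same way and 8 of the 18 pointing towards each other. A shared summit cannot be assigned to either gene.

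Most other strong peaks sat at one tRNA gene. R04A9.t1 (tRNA-Gln, in an intron of ZK1193.2) had rank 236 with the summit at -112. C28G1.t1 (tRNA-Glu) had rank 276 at -54 and overlapped an exon of C28G1.2. Its summit was in the promoter windows of C28G1.2 and of sec-15, which encodes an exocyst subunit. The nearest gene start to that summit was that of a protein-coding gene, 43 bp away. R11.t1 (tRNA-Tyr) followed with rank 313 at -69. F41D9.t3 (tRNA-Asn, in an intron of sulp-3) had rank 335 at -58, and W03G11.t1 (tRNA-Lys) had rank 339 at -33. These 5 peaks stood between ranks 193 and 399 in both replicates.

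Among the remaining named peaks, F47G6.t1 (tRNA-Arg, in an intron of spe-15) had rank 346 at -79, and C33G3.t2 (tRNA-Lys) had rank 388 at -39. The nearest gene start to the C33G3.t2 summit was that of an ncRNA gene, 6 bp away. Below the strongest 500 came the tRNA-Leu genes C04A11.t1 (rank 578, at -8) and C04E7.t1 (rank 611, at -26, also in the promoter window of sor-3) and the tRNA-Ile gene C42D8.t1 (rank 661, at -27). C42D8.t1 ranked 459 in replicate 1 and 986 in replicate 2, the others in this paragraph between 264 and 705. Of the 15 strongest tRNA peaks, 13 were on X and 14 had the summit before the gene, C18A11.t2 being the exception.

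Strength and position went together only in part. The 159 peaks with the summit from -50 to -1 had a median rank of 2456, and 3 of them were among the 500 strongest, the best at rank 326. The other 59 had a weaker median rank of 3532, yet 9 of them were among the 500 strongest. Of these 9, 8 had the summit a little farther upstream, from -112 to -54, and 3 of the 9 are the shared summits between diverging genes. The share in a protein-coding promoter window was 20.1% (14.2 to 27.2) for the first set and 27.1% (16.4 to 40.3) for the second.

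The X chromosome held the largest number of these peaks. There were 104 on X, which is 7.11% of the X peaks, while on each autosome the share was 1.66% to 2.94%. X also has more tRNA genes, 276 of the 612, at 15.6 per Mb against 3.73 to 4.64 per Mb on the autosomes. Counted per gene, 118 of 276 X-linked tRNA genes had a summit (42.8%, 36.8 to 48.8), as did 116 of 336 autosomal ones (34.5%, 29.4 to 39.9), and these intervals overlap. By autosome the share was 46.9% of 64 on III, 42.1% of 57 on II, 31.8% of 66 on I, 31% of 71 on IV and 24.4% of 78 on V (15.3 to 35.4). Chromosomes next to each other in the order of these shares had overlapping intervals, while those of X and V did not overlap.

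The X-linked tRNA peaks ranked higher than the autosomal ones, with medians of 2156 for 104 and 2953.5 for 114. For all IDR peaks the medians were 3190 on X and 3126.5 on autosomes. Of the 12 tRNA peaks among the 500 strongest, 10 were on X. The strongest on each autosome were F47G6.t1 on I (rank 346), Y38E10A.t1 on II (tRNA-Ala, rank 795, at -225), W09D6.t2 on III (rank 326), K11H12.t1 on IV (rank 739) and K06A4.t1 on V (tRNA-Ala in an intron of swt-5, rank 1194, at -29). The peak named for Y38E10A.t1 did not overlap that gene, and its summit was in the promoter windows of Y38E10A.22 and Y38E10A.24. Another peak at Y38E10A.t1 had its summit at -24 and rank 5607. K11H12.t1 is the only tRNA-Sec gene in the annotation. It lies in an intron of K11H12.8, its summit was at -56, and it ranked 620 in replicate 1 and 881 in replicate 2.

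Every amino acid given in the annotation had a tRNA gene with a summit. Among the amino acids with more than 1 gene, the share with a summit ran from 51.2% of 41 tRNA-Glu genes (35.1 to 67.1) through 50% of 20 tRNA-Met and 14 tRNA-Phe genes down to 21.1% of 19 tRNA-Tyr genes and 20% of 20 tRNA-Asn and 20 tRNA-His genes (5.73 to 43.7). Each of these intervals includes the 38.2% of all tRNA genes. Glu had 22 genes with a summit in replicate 1 and 21 in replicate 2, and Asn and His had 4 each in both. The 5 tRNA genes with no amino acid in the RefSeq annotation had no summit in the IDR list.

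**Figure D4:**
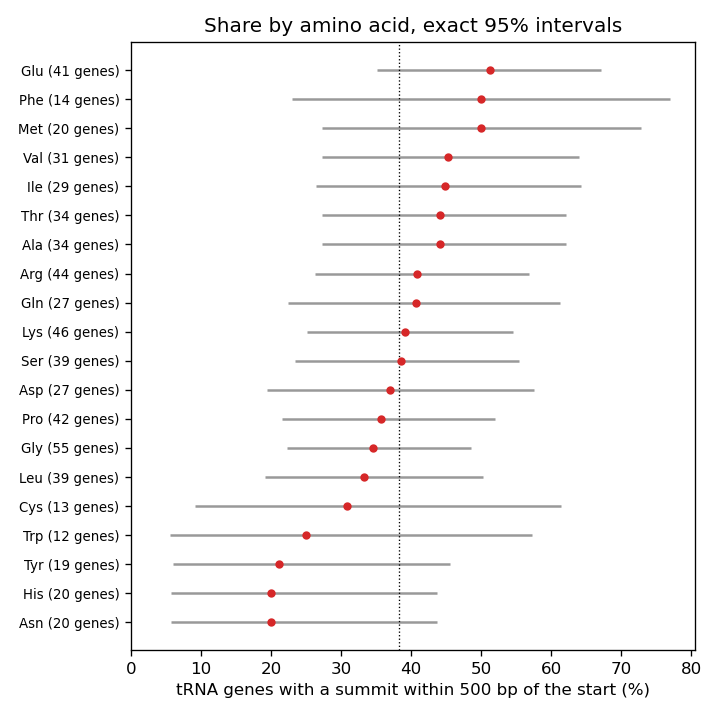
Share of tRNA genes with an IDR summit within 500 bp of the start (horizontal, percent, points with exact 95% intervals) for each amino acid with more than 1 gene (vertical, with the number of genes), and a dotted line at the share of all tRNA genes, 38.2%. The points run from 20% to 51.2%, and all intervals cross the line.

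Genes inside and outside introns had similar shares. Of 283 tRNA genes inside an intron of a protein-coding gene 37.8% had a summit (32.1 to 43.7), and of 319 outside such genes 38.6% did (33.2 to 44.1). Where the whole tRNA gene lay within a protein-coding gene, the share was 40.7% of 123 on the opposite strand and 36.7% of 166 on the same strand. The 1 tRNA gene within protein-coding genes of both strands had no summit. tRNA genes with no other start within 1000 bp had a summit in 41.1% of 382 cases (36.1 to 46.2), those in pairs in 37% of 154 and those in groups of 3 or more in 26.3% of 76 (16.9 to 37.7). The groups with most genes near a summit were the tRNA-Gln genes of H08J11 in an intron of ajm-1, with 3 of 5 genes, the tRNA-Met genes of C25F6 and the tRNA-Ile genes of B0344 in an intron of wrt-9, each with all 3. In each of these groups a single summit stood near 3 starts, with rank 2480 in H08J11, 4756 in C25F6 and 5762 in B0344.

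Copies of the same tRNA gene often differed in the IDR list. The 612 genes have 200 distinct sequences, and 57 sequences are present in 2 or more copies, together 469 genes. In 44 of these 57 sequences some copies had a summit and others had none, in 4 all copies had one and in 9 no copy did. The largest set, of 29 tRNA-Gly genes, had a summit at 11. A set of 25 tRNA-Lys genes had one at 12, and the set of 24 tRNA-Pro genes shown above had one at 9. With each replicate alone the Gly set had 11 in both, and the Pro set 9 in replicate 1 and 11 in replicate 2. In the full pooled list the Gly set had 22, the Lys set 20 and the Pro set 15, so many copies without an IDR summit had a weaker peak. How many sequences would have mixed copies from the share of genes with a summit alone was not computed. The share with a summit was 41.6% of the 469 genes with copies (37.1 to 46.2) and 27.3% of 143 single-copy genes (20.2 to 35.3), and the intervals do not overlap.

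Reads from identical DNA cannot be assigned to 1 place, so the flanks were checked too. For 590 tRNA genes the 50 bases before the gene occur once in the genome, and 234 of those (39.7%, 35.7 to 43.7) had a summit. None of the 22 genes with repeated flanks had one in the IDR list or the pooled list (0 of 22, upper limit 15.4%). In the full list of replicate 1 the neighbouring tRNA-Asn genes F57G8.t1 and F57G8.t4 did, and in that of replicate 2 none did. These 22 include 4 of the 20 tRNA-His genes and 5 of the 20 tRNA-Asn genes, and among genes with unique flanks the shares of these amino acids were 25% and 26.7%. Among genes with unique flanks the share was 43% of 453 genes with copies (38.4 to 47.7) and 28.5% of 137 single-copy genes (21.1 to 36.8). The sources used here do not say how the authors treated reads with more than 1 match.

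Promoter words of the tRNA gene were found beside the summits but seldom at them. The words are short fixed strings, searched on both strands, and a match is not a measured binding site. The rule put a tRNA gene beside every one of these peaks, and the boxes are part of that gene, so the shares in other peaks are given as background and nothing is read from the contrast. Within 50 bp of the summit, 13 of 218 tRNA peaks (5.96%, 3.21 to 9.98) held the B box word GTTCGANNC, which 0.544% of the other 6065 IDR peaks held. Within 150 bp it was in 153 (70.2%, 63.6 to 76.2; other peaks 1.98%), and the wider word GTTCNANNC, which takes any base at the fifth place, was in 90.4% (other peaks 8.44%). For 166 of the 218 peaks the tRNA gene itself held the narrower word GTTCGANNC. There it started at a median of base 53 of the gene and lay a median of 79 bp from the summit (quartiles 66 and 90). An A box word, TAGCNNAGT, was in 18.8% of tRNA peaks within 50 bp (13.8 to 24.6; other peaks 0.528%), and another form, TGGCNNAGT, in 8.26% (other peaks 1.48%).

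Words of other kinds, which are not part of the tRNA promoter, gave a mixed picture. TAATTA, the core recognised by many homeodomains, was within 50 bp of 4 of the 218 summits (1.83%, 0.502 to 4.63) and in 4.63% of the other peaks (4.12 to 5.19). Within 25 bp it was at none of 218, which allows a share of up to 1.68%, and in 2.03% of the others. Within 50 bp, the GAGA word GAGAGAGA was in 4.13% of tRNA peaks (1.9 to 7.69), an interval that includes the 4.88% of other peaks. A run of 5 T bases lay within 50 bp of 38.5% of tRNA summits (32 to 45.3) and 52.5% of the others (51.2 to 53.8). Within 150 bp that order was the opposite, with 96.8% (93.5 to 98.7) and 92.9% (92.2 to 93.5). The rule put a tRNA gene beside every tRNA peak, and a run of T bases usually follows such a gene. On their own strand, none of the 234 tRNA genes with a summit held any of these words, and the gene fills part of many windows. Nothing is therefore read from the contrasts with other peaks, in the narrow windows or in the wider one.

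Inside the genes, those with and without a summit carried the promoter words at similar shares. GTTCGANNC was in 73.5% of the 234 genes with a summit (67.4 to 79) and in 71.2% of the 378 without (66.3 to 75.7), and GTTCNANNC in 96.2% and 95.8%. A run of 4 T bases, the usual terminator, lay within 30 bases past the gene in 99.6% and 98.4%. The 30 bases before the gene held such a run in 20.1% of genes with a summit (15.1 to 25.8) and 31% of genes without (26.3 to 35.9).

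The DNA just before the gene held less A+T in genes with a summit. In the 50 bases upstream, genes with a summit had a median of 54% A+T (quartiles 48 and 60) and genes without one 60% (54 and 66), where the genome has 64.6%. The gene bodies had the same median, 41.7%. From -33 to -27 the 2 sets were closer, with 72.9% A+T on average with a summit and 70% without, while in the rest of the 50 bases the values were 50.8% and 57.9%. Single bases of that stretch went both ways. At -30, 80.3% of genes with a summit and 69.3% of genes without had A or T, and at -28 it was 77.8% and 66.1%. At -31 the values were 60.7% and 68.5%, and at -29 they were 66.2% and 69%.

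**Figure D5:**
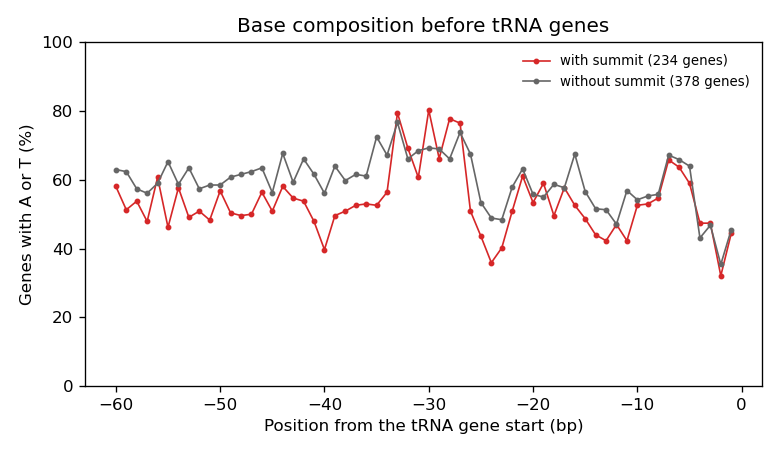
Share of tRNA genes with A or T (vertical, percent) at each base from -60 to -1 before the gene start (horizontal, bp) for genes with and without an IDR summit within 500 bp. Both lines rise near -30, to an average of 72.9% with a summit and 70% without from -33 to -27, and the line of genes with a summit runs lower over most other positions.

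The lower A+T outside that stretch was found in every subset examined. With the strongest peaks of replicate 1 alone it was 50.4% with a summit and 58.3% without, and with replicate 2 alone 50.4% and 57.9%. On X the values were 52.8% and 61.1%, on autosomes 48.6% and 55.6%, and at tRNA genes with no other within 1000 bp 49.2% and 56.9%. The 188 genes with no summit in any list had 60.5%. Base composition can change how well DNA is amplified and sequenced, and its part in these peaks was not tested.

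Genes for the machinery that reads tRNA genes were a separate question, since they are transcribed by RNA polymerase II. Of 21 protein-coding genes for RNA polymerase III subunits, its factors and the snRNA activating complex, 5 had a summit in the promoter window (23.8%, 8.22 to 47.2), where 14.7% of all protein-coding genes did. The interval includes that share. The strongest was at tftc-1, a TFIIIC subunit, with rank 1362 (1643 in replicate 1 and 1184 in replicate 2) and the summit at -152. The others were rpac-19, a subunit that RNA polymerases I and III share (rank 2283), snpc-4 of the snRNA activating complex (rank 4454), and rpb-10 and rpb-12, subunits common to the nuclear RNA polymerases (ranks 5381 and 6069). The genes for the TFIIIB parts brf-1 and tbp-1 and for the largest polymerase subunit, rpc-1, had none in the IDR list.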

How the data were processed

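The authors deposited peak lists for each replicate, for the pooled replicates and for the pooled peaks that passed their IDR threshold; the 4 lists on ce11 were used. Each deposited row holds the authors' signal, whose scale is not stated, a −log10 q-value and a summit offset. The deposited −log10 q-value stood at its ceiling for 210 of the 218 tRNA peaks and was not used to rank. For the aligner, the peak caller and the IDR threshold, names and settings were not given in the sources used here. Depth is unknown. The full pooled list and the list of replicate 2 hold exactly 30000 peaks each.

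Gene models came from Ensembl release 115 and amino acids and sequence from NCBI RefSeq, both for WBcel235; all 612 tRNA genes matched between them. Coordinates are 1-based. Replicate peaks were matched by an overlap of at least 1 bp, taking the strongest. Shares have exact Clopper-Pearson 95% intervals, which cover counting error only. There was no test, because the labels give 1 group. Assignment of summits to genes was tested on simulated data. Python 3.11.15, pandas 2.3.3 and SciPy 1.17.1 were used. No per-sample column was left out.

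The peaks, gene lists and words were chosen with earlier results of these data known. Genes named are those of the 15 strongest peaks, the strongest on each chromosome, the 3 on each side of the limit, the 3 groups with most genes near a summit, machinery genes with a summit and their neighbours; machinery genes without a summit and copies shown as sequence were named after their values were seen. The wider B box word, bases -33 to -27, pairs and repeated flanks were added after the data were examined.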

Additional observations from a re-analysis of the deposited data

How the results depend on the processing

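Of 35 alternative values, 20 stayed close to the reported value and 15 moved. Close meant inside the exact interval for a share, within the replicate spread for a median, and within a fixed ratio for a count. That spread was taken from the replicate medians themselves, so it is no independent measure for them. The share of IDR peaks at tRNA genes was 3.99% with a window of 1000 bp, 4.17% in the stronger 50% of peaks, 1.35% in the full pooled list and 2.71% without summits in protein-coding promoter windows. The share of tRNA genes with a summit was 45.1% with 1000 bp, 24.7% with the stronger 50% of peaks, 59.6% with the full pooled list and 34% when a summit counted for the closest tRNA gene alone. The B box word share was 2.29% within 25 bp of the summit and 70.2% within 150 bp, and with GTTCNANNC it was 10.1% within 50 bp and 90.4% within 150 bp. The median rank was 2156 on X alone and 2953.5 on autosomes alone.

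With each replicate alone, the share of peaks ran from 3.37% to 3.52%, the share of tRNA genes from 36.3% to 39.5%, the median rank from 2569 to 2676, the number among the 500 strongest from 12 to 13, the median summit position from -25 to -23, the machinery share was 28.6% in both and the number of sequences whose copies differed ran from 44 to 47. The median rank moved by more than the spread between replicates without replicate 2. No paired analysis was possible because the labels give 1 group. Unknown depth limits what a missing summit shows: a tRNA gene without one was not detected at this depth and threshold.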
